A study of Mus musculus with 34 samples.

Results

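This section describes 10 genes that act in the engulfment of synapses and dying cells: the receptors Megf10, Lrp1, Mertk, Axl and Tyro3, the bridging ligands Gas6, Pros1 and Mfge8, and the integrin subunits Itgav and Itgb5. They were chosen by symbol, as genes of the Megf10 and TAM receptor route, and all 10 were found among the 20613 genes with values. Polyadenylated RNA was sequenced from cortical astrocytes of wild-type (WT) male mice, purified with magnetic beads, and the labels name no treatment. The 34 libraries covered 9 ages, written P7 for postnatal day 7 and so on, and 18m for 18 months. There were 4 libraries each at P7, P14 and 18m, 5 each at 3m and 6m, and 3 each at P21, P28, P60 and 12m. The antigen used for the isolation, and whether libraries came from separate animals, are not given in the sources used here. The p-values therefore measure only the spread between these libraries.

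Astrocytes take up synaptic material and cell debris. MEGF10 is a receptor with epidermal growth factor repeats that recognises cargo tagged by complement or by exposed phosphatidylserine, while the TAM receptors TYRO3, AXL and MERTK are tyrosine kinases that bind phosphatidylserine through the bridging proteins GAS6 and protein S (Pros1). MFGE8 bridges phosphatidylserine to the integrins that pair the alpha v subunit (Itgav) with the beta subunits Itgb5 or Itgb3, and LRP1 is a large endocytic receptor for apolipoprotein E and many other ligands.

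The upstream sequences of Mertk, Gas6 and Itgb5 are shown because these genes changed between P7 and P14. Each run is the 250 bases before the RefSeq start site in GRCm38.p6, 5′ to 3′ on the gene's own strand. Capitals mark each GC box, GGGCGG on either strand. The Mertk window is chr2:128698665-128698914 on the plus strand, the Gas6 window chr8:13494536-13494785 on the minus strand and the Itgb5 window chr16:33829415-33829664 on the plus strand. In GENCODE M21 the genes Mertk (chr2:128698956) and Gas6 (chr8:13494490) start downstream of these RefSeq starts. Bases just after the RefSeq start were found in a GENCODE transcript for Itgb5 but not for Mertk or Gas6.
Mertk: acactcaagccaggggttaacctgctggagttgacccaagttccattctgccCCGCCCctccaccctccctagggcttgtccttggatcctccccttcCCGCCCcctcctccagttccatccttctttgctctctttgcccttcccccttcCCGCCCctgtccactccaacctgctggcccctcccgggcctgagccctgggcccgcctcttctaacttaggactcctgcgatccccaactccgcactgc
Gas6: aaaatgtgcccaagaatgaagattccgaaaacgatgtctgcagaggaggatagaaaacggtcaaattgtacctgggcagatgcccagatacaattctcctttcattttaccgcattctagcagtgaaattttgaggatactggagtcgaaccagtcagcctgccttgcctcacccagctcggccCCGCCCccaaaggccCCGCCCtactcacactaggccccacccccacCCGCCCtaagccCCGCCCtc
Itgb5: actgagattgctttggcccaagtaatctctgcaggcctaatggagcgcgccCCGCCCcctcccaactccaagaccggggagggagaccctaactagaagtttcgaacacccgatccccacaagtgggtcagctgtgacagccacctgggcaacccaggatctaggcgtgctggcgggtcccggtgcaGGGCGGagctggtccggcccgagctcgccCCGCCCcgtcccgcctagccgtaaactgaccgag

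The Gas6 window held 4 GC boxes, and the Mertk and Itgb5 windows held 3 each. A RefSeq window was used for 9 of the 10 genes, and the one for Megf10 was not used here. Pros1 had 5 matches, Mfge8 4, Tyro3 3, Axl and Lrp1 1 each, and Itgav 0. A GC box stood in 32.7% of the 32817 windows of the same length. Another 6 motifs were searched on both strands: the E-box CACGTG, the half-site AGGTCA, the AP-1 site TGANTCA, the CCAAT box CCAAT, the TATA box TATAAA and the full palindromic NFI site. They stood in 6.02%, 14.03%, 6.75%, 33.8%, 12.4% and 0.0366% of all windows, and in none of the 9 windows of these genes. Genes that differed between ages and genes that did not both held the GC box.

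Values are in TPM, a library's transcripts shared out among genes after division by gene length, so that levels can be compared between genes. By how many genes had a TPM of 0, the libraries formed 3 ranges with gaps between them. The highest, 4109 to 4819 genes, held 14 libraries: all those of P7, P14 and 18m, and replicates 1 and 2 of 12m. The middle one, 2854 to 3523 genes, held the 9 of P21, P28 and P60, and the lowest, 1155 to 1704 genes, held the 11 of 3m, 6m and 12m replicate 3. P14 vs P7, P60 vs P21, 6m vs 3m and 18m vs P7 compare ages within a range. In P60 vs P7 and 18m vs 3m, age and range cannot be told apart. The astrocyte markers Aldh1l1 and Slc1a3 were present at every age, with Slc1a3, a glutamate transporter, at 1870 to 3973 TPM in the 34 libraries. The sum of 15 microglial markers was 96.2 to 317 TPM, and their receptor gene Cx3cr1 averaged 0.4664 TPM at P7 and at most 2.94 at any age. Other genes of that list made up most of the sum. Transcripts of oligodendrocytes, neurons, vessels, ependyma and red cells were also present. Red cell markers summed to 36270 to 67755 TPM at P21, above the 16 mature astrocyte markers there (32205 to 33546). They summed to 3529 to 9720 TPM at P60. In replicate 1 of 12m the red cell sum (45499 TPM) was also above the astrocyte sum (27683). Endothelial marker sums reached 3928 TPM at P14 and mural ones 5818 TPM at 18m. Mobp, a myelin gene, was at 0 in all P7 libraries.

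The most abundant of the 10 genes was Mfge8, at 4377 to 8153 TPM, above 99.95% of all genes. Mertk (40.6 to 217 TPM), Itgb5 (71.4 to 139), Gas6 (31.3 to 212) and Axl (61.8 to 98.0) formed a middle group. Pros1 (28.8 to 56.8), Lrp1 (21.2 to 51.3) and Itgav (20.1 to 44.5) were lower, and Megf10 (5.28 to 15.2) and Tyro3 (3.54 to 10.9) were lowest. The ratio of the highest to the lowest age mean was 3.63 for Mertk and 2.86 for Gas6. It lay between 1.26 and 1.81 for the other 8 genes. A limma F test over the 9 ages called 5 of the 10 genes (adjusted p under 0.05), against 63.6% of the 14590 genes tested. These were Mertk (adjusted p = 9.3e-05), Mfge8 (0.000192), Gas6 (0.000256), Itgb5 (0.00361) and Itgav (0.00673). Tyro3 (0.0533) and Megf10 (0.0548) lay just past the threshold, and Axl (0.121), Lrp1 (0.332) and Pros1 (0.604) were not called. With mature astrocyte markers as a covariate Mertk lost its call (limma adjusted p = 0.0642). Itgb5 lost its call with quantile normalization (0.0784) and with neuron and oligodendrocyte covariates (0.0946). After median-of-ratios rescaling Tyro3 (0.0179) and Megf10 (0.0204) were called. Array weights called both (0.00215 and 0.00293) and Axl (0.0486).

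**Figure D1:**
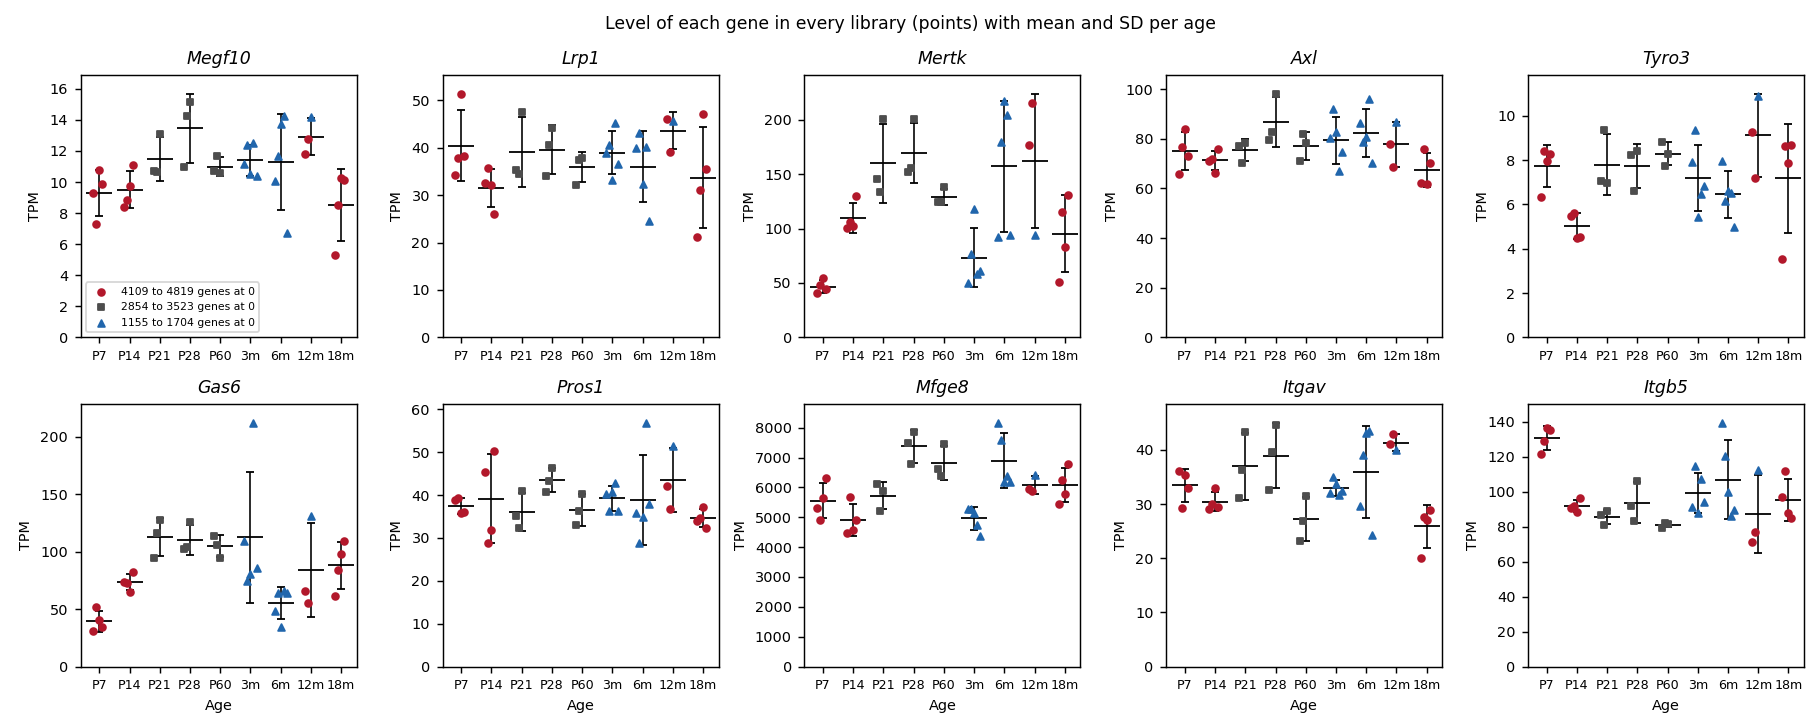
Level in TPM (vertical axis, from 0) of each gene at the 9 ages (horizontal axis). Points are libraries, coloured by the number of genes listed at 0, and bars are the mean and SD per age. The age means of Mertk and Gas6 were lowest at P7 and that of Itgb5 was highest at P7, while Lrp1 libraries ran from 21.2 to 51.3 TPM with no such order.

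The changes between ages differed by gene. From P7 to P14, Mertk and Gas6 rose and Itgb5 fell, so that 3 of the 10 genes were called, against 11.8% of all genes tested (3.28% higher and 8.57% lower). From P7 to 18m Mertk and Gas6 rose and Itgb5 fell, 3 of 10, against 29.6% of all genes (4.67% higher and 24.9% lower). From P7 to P60, Mertk, Gas6 and Mfge8 rose and Itgb5 fell, 4 of 10 against 52.8% of all genes (19.5% higher and 33.3% lower), a share no higher than the background. These 3 comparisons share the P7 libraries and are not independent of each other. From 3m to 6m, Mertk and Mfge8 rose and Gas6 fell, 3 of 10 against 9.32% of all genes (2.07% higher and 7.25% lower). From 3m to 18m, Mfge8 rose and Itgav fell, 2 of 10 against 37.5% (4.16% higher and 33.4% lower). The last 2 comparisons share the 3m libraries. From P21 to P60, limma called 0 of the 10 genes, against 1.86% of all genes (1.5% higher and 0.356% lower), while 2 (Itgav and Mfge8) had an unadjusted p under 0.05. All fold changes are differences of log2(TPM + 1), and in bulk RNA fewer cells of a type and less RNA per cell cannot be told apart. The median change over all genes was -0.15 for P60 vs P7, -0.24 for 18m vs 3m, -0.20 for 18m vs P7, -0.10 for P14 vs P7, -0.08 for 6m vs 3m and 0.00154 for P60 vs P21. Rescaling the libraries by median of ratios moved the first 3 to 0.00658, -0.02 and 0.03.

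**Figure D2:**
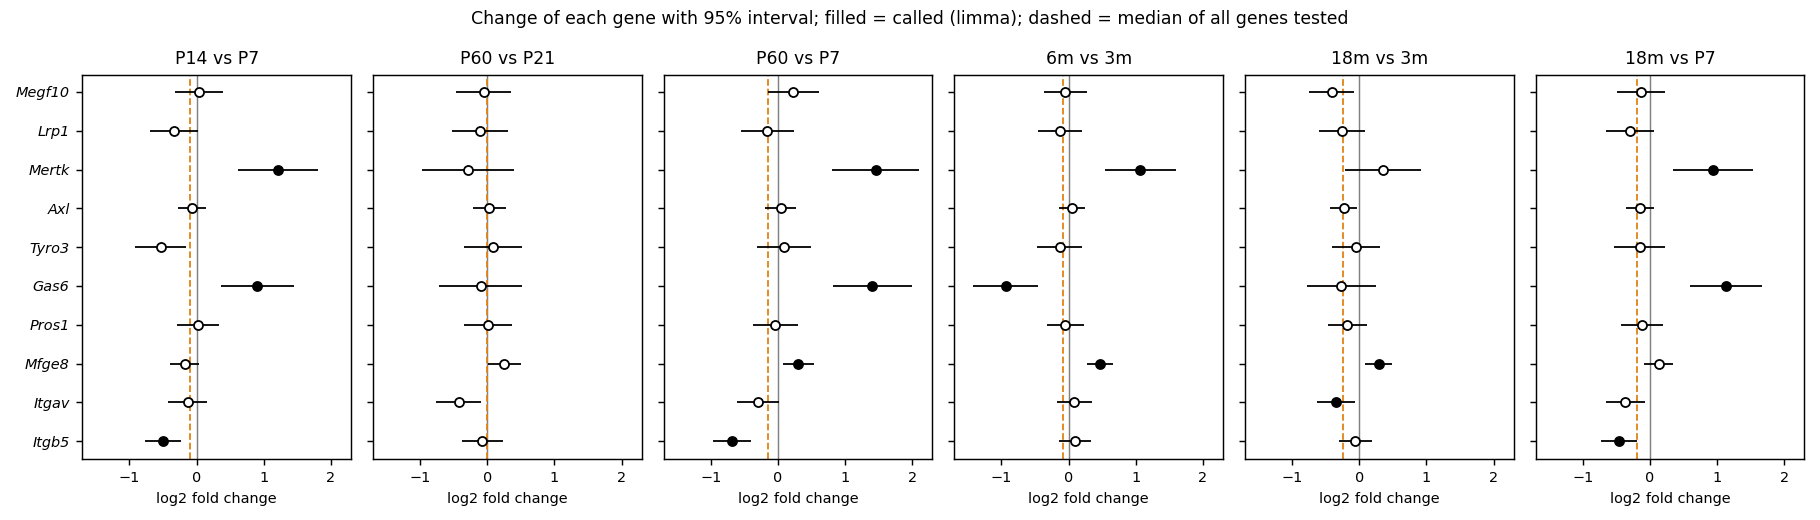
Difference in log2(TPM + 1) between ages (horizontal axis) for each gene (vertical axis), with its 95% interval, in the 6 comparisons. Filled points are genes called by limma and the dashed line is the median of all genes tested. Mertk and Gas6 stand to the right of the other genes in the 3 comparisons with P7, and Gas6 stands to the left in 6m vs 3m.

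Megf10, the engulfment receptor after which the route is named, kept a low level. Its libraries held 9.31, 7.27, 10.8 and 9.86 TPM at P7 and 10.7, 11.7 and 10.6 TPM at P60. These overlapped, and the difference was 0.23 (95% interval -0.15 to 0.62, limma adjusted p = 0.305). After rescaling it was 0.39 and called (adjusted p = 0.0238). The level was highest at P28, with 10.9, 14.2 and 15.2 TPM, and lowest at 18m, with 5.28, 8.55, 10.2 and 10.1 TPM. At 3m the 5 libraries held 11.2, 12.4, 10.5, 12.5 and 10.4 TPM, above every 18m library, as in the 29.2% of all genes whose libraries did not overlap in that comparison. The difference for 18m vs 3m was -0.41 ± 0.17 (SE), with a limma adjusted p of 0.050009, which missed the threshold. It was called with a pseudocount of 0.1 (adjusted p = 0.0488) and with the replicate number as a block (0.003). The replicate numbers did not pair the libraries, so this block, here and for other genes below, adjusts for no known pairing. After rescaling the 18m vs 3m difference stayed uncalled. In the order of ages by mean level, 2 of the 8 steps between neighbours, P14 to P60 and P21 to 12m, exceeded the larger SD of the pair.

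Lrp1, the endocytic receptor, did not pass the test in any of the 6 comparisons. Its age means ran from 31.6 ± 3.98 TPM (SD, n = 4) at P14 to 43.6 ± 3.93 (SD, n = 3) at 12m, and 0 of the 8 steps between neighbouring levels exceeded the larger SD. The library values at 18m were 21.2, 31.0, 47.1 and 35.5 TPM, a wider range than at the younger ages of the same range. Replicate 3 was the highest of these, and without it the limma call for Lrp1 was passed in 18m vs 3m (-0.42, adjusted p = 0.0439) and in 18m vs P7 (-0.47, 0.0421). With array weights Lrp1 was called for P14 vs P7 (-0.32, limma adjusted p = 0.0296).

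Mertk, a TAM kinase with GAS6 and protein S as ligands, had the largest ratio of highest to lowest age mean of the 10 genes. Its P7 libraries held 40.6, 47.8, 54.2 and 44.0 TPM. The P14 libraries held 100.2, 106, 103 and 129.8 TPM, and every P14 library was above every P7 library, as for 34.5% of all genes in either direction. The rise was 1.21 ± 0.29 (SE, limma adjusted p = 0.0109), larger in size than that of 98.99% of genes tested. At P21 the values were 145, 134 and 201 TPM, at P28 152, 156 and 201 TPM, and at P60 125, 125 and 138 TPM. The P60 libraries were also all above those of P7 (60.4% of all genes did not overlap), with a difference of 1.45 ± 0.31 (SE, limma adjusted p = 0.000696). P60 and P21 overlapped, and their difference of -0.29 (95% interval -0.97 to 0.40) was not called.

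In adults Mertk varied more between libraries of the same age. The 3m libraries held 50.4, 76.9, 118, 58.3 and 61.1 TPM and the 6m libraries 92.1, 179, 217, 204 and 94.4 TPM. Replicate 3 of 3m lay above 2 of the 6m libraries, so the ages overlapped, and the 6m mean was 2.16-fold that of 3m (log2 difference 1.07 ± 0.26 SE, limma adjusted p = 0.0131). A fit of only the 3m and 6m libraries did not call it (adjusted p = 0.117) and called 7 of all genes. At 12m the libraries held 176, 215 and 94.0 TPM, the last being the library in the range with few genes at 0. At 18m they held 51.2, 115, 83.2 and 131 TPM, of which replicate 1 was lower than the highest P7 library. The 18m mean was 2.04-fold that of P7 (log2 difference 0.93 ± 0.29 SE, limma adjusted p = 0.018), a call lost without 18m replicate 2 (adjusted p = 0.0583) or 4 (0.0666). For 18m vs 3m the difference was 0.36 (95% interval -0.21 to 0.92) and was not called. It was called in 2 of the 13 alternatives that left out no single library. These were array weights (0.62, limma adjusted p = 0.0219) and mature astrocyte markers as a covariate (0.57, 0.0441).

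Axl, the TAM kinase that binds GAS6 but hardly protein S, did not pass the test in any comparison. Its age means lay between 67.5 ± 6.84 TPM (SD, n = 4) at 18m and 86.7 ± 9.89 (SD, n = 3) at P28. The 95% interval of its difference was -0.28 to 0.14 for P14 vs P7 and -0.19 to 0.27 for P60 vs P7. For 18m vs 3m the difference was -0.23 with a limma adjusted p of 0.0684, close to the median of all genes, and it was 0.022 after rescaling. It was called with the replicate block (-0.26, adjusted p = 0.0326), with neuron and oligodendrocyte covariates (-0.36, 0.0409), and without 18m replicate 2 (-0.28, 0.0396) or 3m replicate 4 (-0.29, 0.0279).

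Tyro3, the TAM kinase best known from neurons, was lowest at P14. Its P7 libraries held 6.35, 8.40, 7.95 and 8.29 TPM, and its P14 libraries held 5.49, 5.61, 4.49 and 4.55 TPM. Every P14 library was below every P7 library, and the difference was -0.53 ± 0.18 (SE) with a limma adjusted p of 0.0543, which missed the threshold. It passed in 5 of the 13 alternatives that left out no single library, among them array weights (adjusted p = 0.000569) and a fit of the P7 and P14 libraries alone (0.0065). At P60 the values were 8.80, 7.76 and 8.29 TPM and overlapped those of P7.

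The make-up of the TAM receptor transcripts differed between ages. Mertk was 36.0 ± 0.793% (SD, n = 4) of the summed Mertk, Axl and Tyro3 TPM at P7, and Axl was 58.0 ± 0.416% (SD, n = 4). At P14 Mertk was 58.8 ± 2.17% (SD, n = 4) and Axl 38.4 ± 1.74% (SD, n = 4), with no overlap with P7 for either gene. Mertk was 65.4 ± 4.19% at P21, 64.1 ± 1.11% at P28 and 60.2 ± 1.82% at P60 (SD, n = 3 each). At 3m Axl was again the larger share, 50.5 ± 6.49% against 44.8 ± 7.65% for Mertk (SD, n = 5), in 4 of the 5 libraries. Mertk was 62.2 ± 9.25% at 6m (SD, n = 5), 63.3 ± 12.8% at 12m (SD, n = 3) and 54.6 ± 7.83% at 18m (SD, n = 4). Tyro3 was between 2.73 and 6.00% at every age. The summed TPM of the 3 receptors was lowest at P7, at 129 ± 13.99 (SD, n = 4), and highest at P28, at 263.8 ± 37.7 (SD, n = 3). The shares themselves were not tested.

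**Figure D3:**
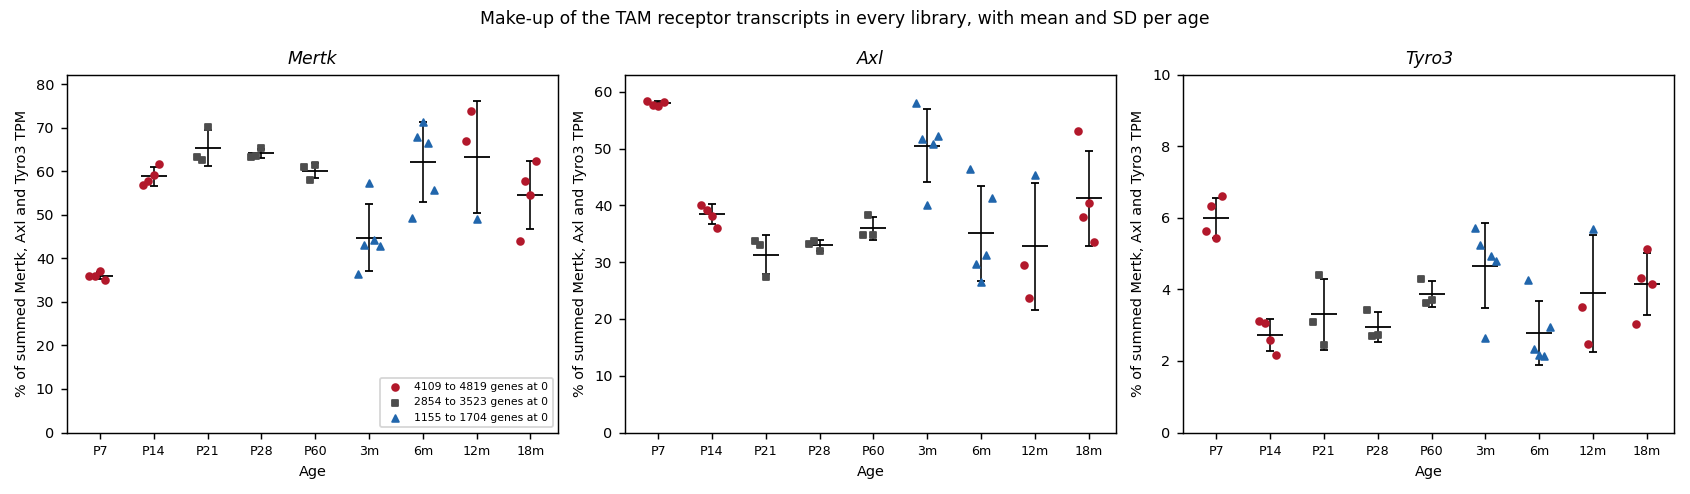
Share of Mertk, Axl and Tyro3 in the summed TPM of the 3 genes (vertical axis, percent) at each age (horizontal axis). Points are libraries, coloured by the number of genes listed at 0, and bars are the mean and SD. Mertk made up 36.0% at P7 and 58.8 to 65.4% from P14 to P60, with a lower share at 3m, while Tyro3, on an axis to 10%, stayed at 6.00% or less in the mean.

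Gas6, the ligand of all 3 TAM kinases, rose early. The P7 libraries held 31.3, 51.9, 40.4 and 34.1 TPM and the P14 libraries 73.9, 73.1, 65.2 and 82.5 TPM. Every P14 library was above every P7 library, with a difference of 0.91 ± 0.26 (SE, limma adjusted p = 0.0276). That call was lost without P7 replicate 1 (adjusted p = 0.0813), 3 (0.0502) or 4 (0.0781), or P14 replicate 2 (0.0596) or 4 (0.0751). The P21 libraries held 94.5, 116 and 127 TPM, the P28 libraries 102, 104 and 126 TPM and the P60 libraries 113, 106 and 94.5 TPM. P21 and P60 overlapped, with a difference of -0.10 (95% interval -0.72 to 0.52), and the P60 libraries were all above those of P7. P60 was 2.65-fold P7 (log2 difference 1.41 ± 0.28 SE, limma adjusted p = 0.000405).

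From 3m to 6m Gas6 fell. The 3m libraries held 109.7, 74.2, 81.0, 212 and 85.9 TPM, and the 6m libraries held 48.1, 64.3, 34.8, 65.9 and 63.6 TPM. Replicate 4 of 3m stood far above the others, and without it every 3m library was still above every 6m library, as for 4.18% of all genes when all libraries are used. The difference was -0.93 ± 0.24 (SE, limma adjusted p = 0.0158) with all libraries, and it was called without any 1 of the 10 libraries, at -0.68 (adjusted p = 0.048) without replicate 4 of 3m. The fit of the 3m and 6m libraries alone did not call it (adjusted p = 0.133). At 12m the values were 66.2, 55.5 and 131 TPM and at 18m 61.5, 83.7, 98.0 and 109.6 TPM. Every 18m library was above every P7 library (34.3% of all genes did not overlap), with a difference of 1.14 ± 0.26 (SE, limma adjusted p = 0.00237). For 18m vs 3m the ages overlapped and the difference was -0.26 (95% interval -0.78 to 0.25). Gas6 lies at chr8:13465374-13494490 (GRCm38) on the minus strand and overlaps Tmem255b on the other strand. Whether counting used strand is not given in the sources used here.

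Pros1, which encodes protein S, did not pass the test in any comparison. Its age means lay between 34.6 ± 2.03 TPM (SD, n = 4) at 18m and 43.5 ± 2.78 (SD, n = 3) at P28. The 95% interval of its difference for P60 vs P7 was -0.38 to 0.29. For 18m vs 3m the Pros1 difference was -0.18 (limma adjusted p = 0.348). With neuron and oligodendrocyte covariates it was -0.52 and called (0.0213). The ratio of Gas6 to Pros1 TPM was 1.05 ± 0.224 (SD, n = 4) at P7, 1.96 ± 0.428 (SD, n = 4) at P14 and 3.14 ± 0.458 (SD, n = 3) at P21. It was 2.82 ± 1.23 at 3m and 1.48 ± 0.486 at 6m (SD, n = 5 each), and 2.56 ± 0.648 (SD, n = 4) at 18m. The P7 and P14 ratios did not overlap, whereas those of 3m and 6m did.

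Mfge8, the secreted bridge to alpha v integrins, changed by less on the log scale but from a high level. Its P7 libraries held 5319, 4913, 5661 and 6307 TPM and its P60 libraries held 6604, 6399 and 7471 TPM. The lowest P60 library lay just above the highest P7 library, and the rise was 0.30 ± 0.11 (SE, limma adjusted p = 0.0271). Quantile normalization turned its direction (-0.15, adjusted p = 0.433), and the call was lost without P7 replicate 1 (0.0581) or 2 (0.0919) or P60 replicate 3 (0.131). The call was also lost with neuron and oligodendrocyte covariates (limma adjusted p = 0.101) and with the mature astrocyte covariate (0.477). The P21 libraries, with 6101, 5210.2 and 5868 TPM, were all below those of P60 (27.6% of all genes did not overlap), but the difference of 0.25 was not called (adjusted p = 0.3). At P28 the libraries held 7500.2, 6771 and 7854 TPM. The 3m libraries held 5279.7, 5276, 5155, 4735 and 4377 TPM and the 6m libraries 8153, 7603, 6175, 6371 and 6167 TPM, with no overlap. This rise was 0.47 ± 0.09 (SE, limma adjusted p = 0.00337). A fit of only the 3m and 6m libraries did not call it (limma adjusted p = 0.102). The 18m libraries, with 5460.4, 6259, 5785 and 6777 TPM, were also all above those of 3m (0.29 ± 0.10 SE, limma adjusted p = 0.023). That call was lost without 3m replicate 5 (0.0652) or 18m replicate 2 (0.0549) or 4 (0.0847), and with the replicate number as a block (0.0515). It was also lost with quantile normalization (limma adjusted p = 0.249), with microglia and endothelial covariates (0.169) and with neuron and oligodendrocyte covariates (0.296).

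Itgav, the alpha v subunit, was lowest at 18m and P60. The 3m libraries held 32.0, 35.1, 33.8, 31.6 and 32.3 TPM and the 18m libraries 20.1, 27.6, 27.1 and 29.0 TPM, with no overlap. The fall was 0.35 on the log2 scale (-0.35 ± 0.14 SE, limma adjusted p = 0.0448). The call was lost after rescaling (-0.10, adjusted p = 0.471), after quantile normalization (-0.15, 0.35) and on leaving out any 1 of 8 of the 9 libraries (adjusted p up to 0.228, without 18m replicate 1). Among the fits without 1 library, only that without 18m replicate 4 kept it. The call was also lost with neuron and oligodendrocyte (limma adjusted p = 0.222), microglia and endothelial (0.205), mature astrocyte (0.0908) and ependymal (0.0644) covariates. For 18m vs P7 the libraries did not overlap either, but the limma adjusted p was 0.0546. The difference was called in 7 of the 13 alternatives that left out no single library. Among them were array weights (adjusted p = 0.0281), the mature astrocyte covariate (0.00505) and the replicate block (0.0172). At 12m, by contrast, all 3 libraries were high, with 41.1, 42.9 and 39.9 TPM. Itgav overlaps Gm13684 and Dnmt3l-ps1 on the other strand.

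Itgb5, a beta partner of alpha v, fell after P7. Its P7 libraries held 122, 129, 137 and 135 TPM and its P14 libraries held 90.9, 91.9, 88.6 and 96.5 TPM, with a clear gap between them. The fall was 0.50 on the log2 scale (-0.50 ± 0.13 SE, limma adjusted p = 0.0154). The level did not return to that of P7 in the mean at any later age, with P60 libraries at 79.4, 82.4 and 81.5 TPM and 18m libraries at 96.8, 112, 87.8 and 85.2 TPM. P60 fell by 0.68 (-0.68 ± 0.14 SE, limma adjusted p = 0.000428) and 18m by 0.46 (-0.46 ± 0.13 SE, 0.00962), and neither overlapped P7. After rescaling the change was -0.37 for P14 vs P7 (limma adjusted p = 0.0882) and -0.20 for 18m vs P7 (0.379), so those calls were lost. Quantile normalization lost both as well (-0.41, adjusted p = 0.0543, and -0.29, 0.146). The P14 vs P7 call was also lost with microglia and endothelial covariates (-0.35, 0.0894). By contrast, P60 vs P7 was called in every alternative. At 6m the libraries ranged from 85.8 to 139 TPM. The ratio of Itgb5 to Itgav TPM was 3.94 ± 0.443 (SD, n = 4) at P7, 2.36 ± 0.379 (SD, n = 3) at P21 and 3.76 ± 0.846 (SD, n = 4) at 18m.

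**Figure D4:**
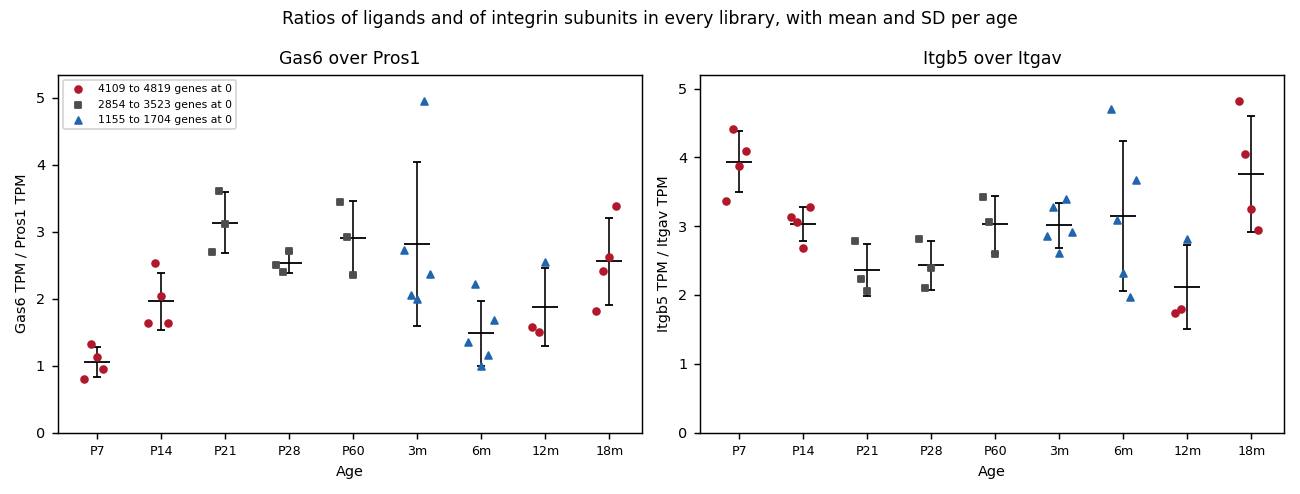
Ratio of Gas6 to Pros1 TPM (left) and of Itgb5 to Itgav TPM (right), vertical axes from 0, at each age (horizontal axes). Points are libraries, coloured by the number of genes listed at 0, and bars are the mean and SD. The Gas6 ratio was lowest at P7 (1.05), and that of 3m includes a library at 4.95, while the mean Itgb5 ratio was highest at P7 (3.94), with single libraries of 18m (4.82) and 6m (4.70) above every P7 library.

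Markers of cell types moved with Gas6 and Mertk, the 2 genes with the largest ratios of highest to lowest age mean. All 6 ependymal markers rose from P7 to P60 and all 6 fell from 3m to 6m (limma). Their summed TPM ranged from 163 to 235 at P7, 310 to 471 at P14, 695 to 1602 at P60, 426 to 1655 at 3m, 134 to 540.2 at 6m and 354 to 767 at 18m. None of the 6 was at 0 in all libraries of an age, and Foxj1, which defines ciliated cells, averaged 6.33 TPM at P7 and 15.4 at P60. Replicate 4 of 3m, the library with Gas6 at 212 TPM, had the highest sum, 1655. Of 330 relations between the 10 genes and 11 marker lists within the 3 ranges of genes at 0, 10 had an adjusted p of r under 0.05. Only those of Gas6 with ependymal and Mertk with mature astrocyte markers are given here. Other pairs of a gene and a list also passed, so such relations were not particular to these pairs. Gas6 followed the ependymal sum with r = 0.90 and rho = 0.90 in the range of P7, P14, 12m and 18m (n = 14; permutation p = 2e-05 and 4e-05, adjusted p = 0.0022 and 0.00495), and r was 0.86 without the 2 libraries farthest from the median. Among the 3m, 6m and 12m libraries r was 0.91 and rho 0.95 (n = 11; permutation p = 0.00016 and 5e-05, adjusted p = 0.0106 and 0.00495), and r was 0.86 without the 2 farthest. Among P21, P28 and P60 r was 0.21 and rho 0.20 (n = 9, exact permutation p = 0.613 for each, adjusted p = 0.879 and 0.908). The permutations ran over all libraries of a range without regard to age, so these p-values also count differences between ages. The relation within an age was not tested.

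With the mean ependymal level as a covariate, a setting added after the data were seen, the Gas6 difference was 0.34 for P60 vs P7 (limma adjusted p = 0.218) and -0.18 for 6m vs 3m (0.68), neither called. It stayed called for P14 vs P7 (0.53, adjusted p = 0.0244) and 18m vs P7 (0.52, 0.0229). Mertk and Mfge8 were not called for 6m vs 3m with that covariate either (adjusted p = 0.125 and 0.0635). Gas6 transcripts of ependymal cells and of astrocytes cannot be told apart in these libraries.

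Mertk moved with the 16 mature astrocyte markers, whose sum ranged from 14733 to 18251 TPM at P7, 23503 to 27572 at P14, 28699 to 29627 at P60, 16319 to 26569 at 3m and 23519.5 to 35981 at 6m. From P7 to P60, 8 of the 16 rose and 3 fell. In the range of P7, P14, 12m and 18m, Mertk followed that sum with r = 0.85 and rho = 0.84 (n = 14; permutation p = 8e-05 and 0.00031, adjusted p = 0.0066 and 0.0166), with r = 0.77 without the 2 farthest libraries. In the other ranges r was 0.74 and rho 0.77 (n = 9; exact permutation p = 0.0283 and 0.0214, adjusted p = 0.241 and 0.307) and 0.71 and 0.73 (n = 11; permutation p = 0.0121 and 0.0148, adjusted p = 0.143 and 0.256), and neither passed after adjustment. As for Gas6, these p-values also count differences between ages, and the relation within an age was not tested. With the mean mature astrocyte level as a covariate, also added after the data were seen, Mertk was not called for P14 vs P7 (0.25, limma adjusted p = 0.654), P60 vs P7 (0.63, 0.106) or 18m vs P7 (0.44, 0.185), and was called for 6m vs 3m (0.67, 0.0495). Neuron markers summed to 46.7 to 73.3 TPM at P7 and 519 to 939 at P60. With neuron and oligodendrocyte covariates Mertk was 0.65 for P60 vs P7 (adjusted p = 0.215) and 0.62 for 18m vs P7 (0.0817). Microglia, which also express Mertk, had a marker sum of 99.8 to 173 TPM at P7 and 215 to 273 at P60, and 8 of their 15 markers rose. With microglia and endothelial covariates all 4 genes called for P60 vs P7 stayed called. In the P14 vs P7 comparison limma called 0 of the 15 microglial markers higher and 1 lower, but their median difference was 0.65 (all genes -0.10) and their sum went from a mean of 139 TPM to 199 TPM, with a P14 range of 123 to 317 TPM. After rescaling 1 was called higher and 0 lower. The part of microglial transcripts in the Mertk difference at P14 was not tested beyond the microglia and endothelial covariates, with which it stayed called.

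**Figure D5:**
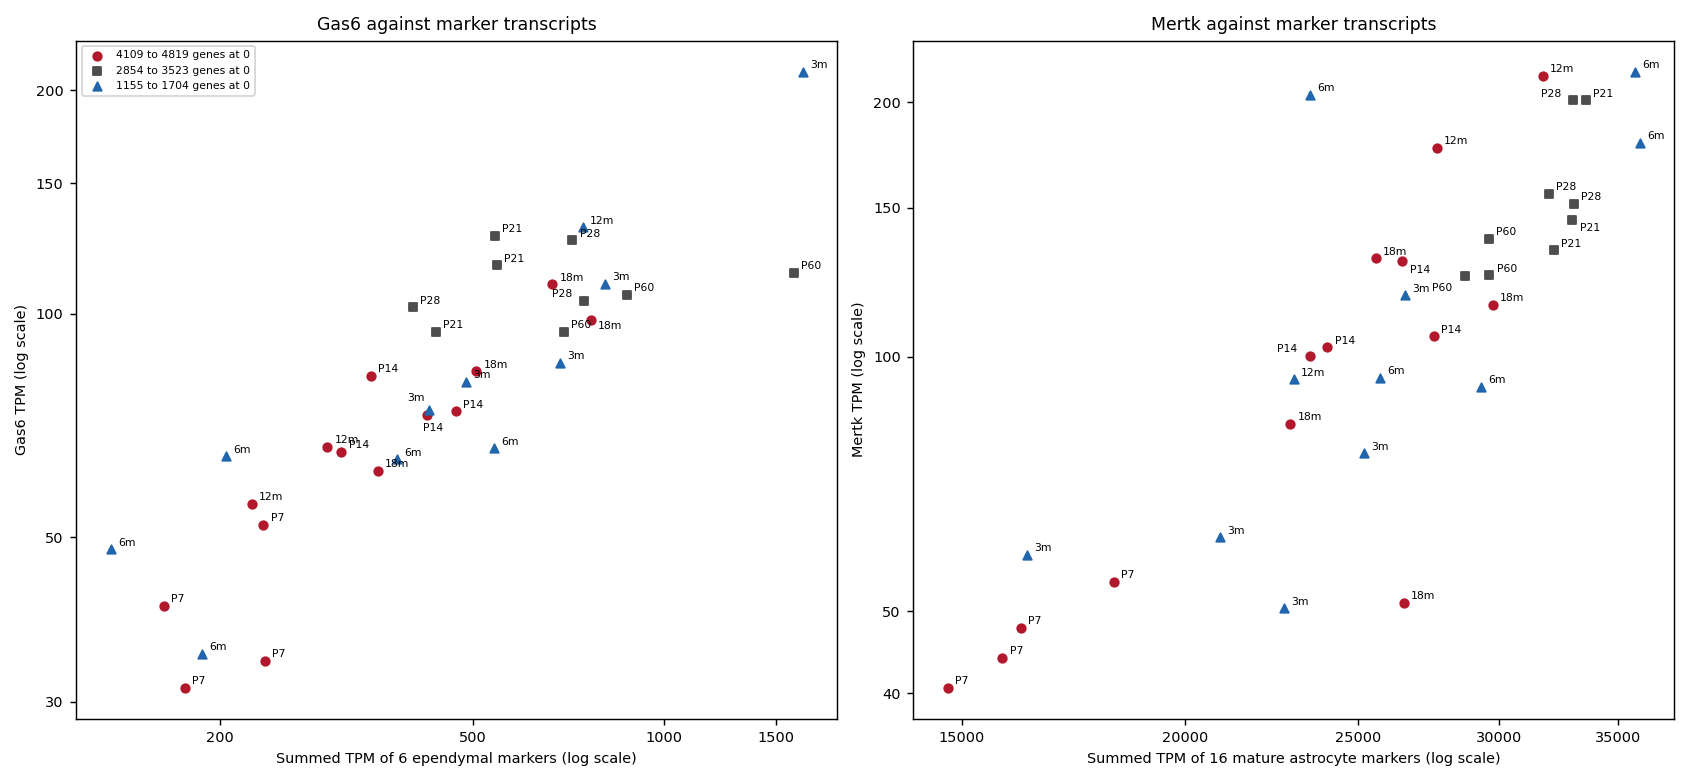
Gas6 TPM against the summed TPM of 6 ependymal markers (left) and Mertk TPM against that of 16 mature astrocyte markers (right), all on log axes. Each point is a library labelled by its age and coloured by the number of genes listed at 0. Gas6 and the ependymal sum were low together at P7 and 6m and highest together in the 3m library with 212 TPM, and the means of Mertk and of the astrocyte sum were lowest at P7.

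Other genes of the route, from 6 lists, were read beside the 10. From P7 to P60, 35 of their 64 tested genes were called (54.7%), 18.8% higher and 35.9% lower, near the shares over all genes (52.8%, 19.5% and 33.3%). Of 11 tested other engulfment receptors, 4 rose and 4 fell from P7 to P60 (median -0.32, all genes -0.15). Trem2, a microglial phospholipid receptor, went from 1.12 ± 0.473 TPM (SD, n = 4) to 4.78 ± 1.40 (SD, n = 3), in parallel with the microglial sum. Scarb1, a scavenger receptor for lipoproteins, fell from 54.8 ± 8.90 to 23.0 ± 3.00 TPM (limma adjusted p = 0.00313), and Stab1, a scavenger receptor of macrophages and endothelium, from 5.20 to 2.05 TPM (0.000719). Of the 2 tested other beta partners of alpha v, Itgb1 fell from 136.5 ± 2.49 to 60.8 ± 6.97 TPM (adjusted p = 0.000649), the same direction as Itgb5. Among 13 adaptors that link receptors to Rac1, 1 rose and 6 fell (median -0.27), among them Gulp1, the adaptor that binds MEGF10 and LRP1 tails, from 15.95 ± 0.546 to 10.3 ± 0.838 TPM (0.00148), and Abca1, a lipid exporter, from 41.3 to 19.9 TPM (0.00115). The GTPase Rhog fell from 90.1 to 62.6 TPM (0.00211).

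Of 8 genes for the maturation of TAM ligands and the shedding of TAM receptors, 0 rose and 4 fell from P7 to P60 (median -0.45), where 33.3% of all genes fell. The sheddases Adam17, which cleaves MERTK, and Adam10 fell from 22.6 ± 1.01 to 11.1 ± 1.57 TPM (limma adjusted p = 0.000298) and from 28.9 ± 1.48 to 16.2 ± 1.28 TPM (0.000635). Vkorc1l1, which recycles vitamin K for the carboxylation of ligands such as GAS6, fell from 10.9 to 6.50 TPM (0.000949). Among 17 eat-me and do-not-eat-me genes 5 rose and 3 fell (median 0.41). Calr, calreticulin, fell from 518 ± 71.6 to 239 ± 14.3 TPM (6.4e-05), C3, complement component 3, rose from 0.27 ± 0.338 to 2.77 ± 2.02 TPM (0.000584), and Tmem30a, a flippase subunit, fell from 107 to 74.5 TPM (0.00116). Of 13 genes of the LDL receptor family and its ligands 2 rose and 5 fell (median -0.16), with Lrp8 down from 51.7 to 25.3 TPM (0.00039), A2m down from 19.7 to 4.77 TPM (0.000854) and Apoe, a ligand of LRP1, up from 37255 to 58716 TPM (0.000933). After rescaling the counts of higher and lower genes were 4 and 3, 1 and 1, 2 and 4, 0 and 4, 6 and 3, and 4 and 5 in the order of the lists above, and each gene named kept its call and direction. With quantile normalization Apoe, the most abundant of them, showed no difference by construction.

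From 3m to 18m, 23 of the 64 genes were called (35.9%), 4.69% higher and 31.2% lower, again near the shares over all genes (37.5%, 4.16% and 33.4%). Of 11 other engulfment receptors 1 rose and 3 fell (median -0.34, all genes -0.24). Megf11, the closest relative of Megf10, rose from a mean of 2.19 TPM to 4.18 TPM (limma adjusted p = 0.0264), while Trem2 (0.0124) and Itgam (0.0262) fell. The microglial sum, which includes Trem2 and Itgam, was 154 to 269 TPM at 3m and 96.2 to 205 TPM at 18m. Itgb8, a beta partner of alpha v that activates TGF-beta, fell from 21.6 ± 1.94 to 13.4 ± 3.38 TPM (0.00283). Among the 13 adaptors 0 rose and 6 fell (median -0.28), led by Gulp1 (15.2 to 10.7 TPM, 0.00411), Crk (53.7 to 39.3 TPM, 0.0045) and Dock1 (18.5 to 12.99 TPM, 0.00586). Of the 8 maturation and shedding genes 1 rose and 4 fell (median -0.42), with Adam17 at 20.1 ± 2.76 and 11.8 ± 3.35 TPM (0.00107), Vkorc1l1 at 9.50 and 5.71 TPM (0.000568) and Furin, a protein convertase, at 9.14 and 5.26 TPM (0.00335). Among 17 eat-me genes 1 rose and 2 fell (median -0.19): C3 from 0.631 to 3.30 TPM (0.000651) against Tmem30a (0.0112) and Tub (0.0209). Of 13 LDL receptor family genes 0 rose and 4 fell (median -0.13), among them Sorl1 (0.000461), Lrp8 (0.00128) and Lrp1b (0.036). After rescaling these counts were 1 and 2, 0 and 1, 1 and 3, 2 and 4, 2 and 0, and 2 and 2, and Crk, Tmem30a, Tub and Lrp1b lost their calls. With quantile normalization the counts were 1 and 0, 0 and 1, 2 and 3, 1 and 1, 3 and 1, and 0 and 2. Trem2, Itgam, Gulp1, Dock1, Vkorc1l1, Furin, Tub and Lrp1b then lost their calls (limma adjusted p from 0.0513 for Vkorc1l1 to 0.816 for Itgam), while Megf11, Itgb8, C3, Adam17, Sorl1 and Lrp8 were called under both scalings.

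In the P14 vs P7 comparison 5 of the 64 tested genes of the 6 lists were called (7.81%), 3 higher and 2 lower, against 11.8% of all genes. Over the 34 libraries, the genes most like Megf10 among the 10409 genes averaging 5 TPM or more were Tbc1d5 (Pearson r of log2(TPM + 1) 0.91), Itgb8 (0.90) and Kidins220 (0.89). Itgb8 shared the low level of Megf10 at 18m, with 13.4 ± 3.38 TPM (SD, n = 4) there and 24.4 ± 6.46 (SD, n = 3) at P28. Those most like Mertk were Cadm1 (0.93), Kcnn2 (0.92) and St3gal4 (0.92). Cadm1, a cell adhesion molecule, averaged 283 ± 23.6 TPM (SD, n = 4) at P7, 683 ± 33.7 (SD, n = 3) at P28, 393 ± 79.1 at 3m and 747 ± 212 at 6m (SD, n = 5 each). These likenesses describe libraries that share age and range and carry no test.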

How the data were processed

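The deposited table holds TPM values per gene and library; per the submitters' processing notes, the authors' tools included RSEM 1.2.28 and STAR 2.7.1a, beside Trim Galore 0.6.4 and DESeq2 1.36.0, and the build was mm10. Per the labels' protocols, cDNA was made from low input RNA with the SMART-Seq kit. Each library sums to the same total TPM, so the depth of each is unknown and no counting interval is given.

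Tests covered the 14590 genes that reached 1 TPM in 3 or more libraries. limma 3.58.1 (R 4.3.3, statmod 1.5.0) fitted log2(TPM + 1) with 1 mean per age over all 34 libraries, with trended and robust variance moderation. Benjamini-Hochberg adjustment ran over this whole set, with calls made below an adjusted p of 0.05. Comparisons were P60 vs P7, 18m vs 3m, P14 vs P7, P60 vs P21, 6m vs 3m, 18m vs P7 and an F test over ages. The model was run on simulated data for P60 vs P7 and 18m vs 3m, with 1 spread per gene at all ages. In the real data the median SD per gene ran from 0.130 at P7 to 0.297 at 6m. That run therefore cannot vouch for calls where the spread differs between ages. Tables and figures used Python 3.11.15, pandas 2.3.3 and matplotlib 3.10.9.

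All 10 genes are named. From each pathway list up to 3 called genes with the smallest p were named in P60 vs P7 and 18m vs 3m, and the 3 genes with the highest Pearson r to Megf10 and Mertk. The members and lists were chosen with earlier results of these data known. Relations with marker sums used 100000 permutations, or exact enumeration at n = 9, with adjustment over 330 relations. Libraries were permuted within a range without regard to age. The relations printed were chosen after their values were seen. Alternatives were other pseudocounts, filters, scalings, array weights, a replicate block, fits of only the ages compared, marker covariates and leaving out each library. The ependymal and mature astrocyte covariates and the fit without 6m were added after the data were seen. Promoter windows are from RefSeq, and gene positions are from GENCODE M21. The position and sequence of Megf10 are not reported here.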

Additional observations from a re-analysis of the deposited data

Results flagged for a closer look

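In groups of 4 or 5 libraries, 50 sets of values (each of the 10 genes at P7, P14, 3m, 6m and 18m) were checked for a library whose gap to its nearest neighbour was a large share of the group's range. Chance flags about 1 in 20 such groups, and 2 of the 50 stood out. Gas6 in replicate 4 of 3m was at 212 TPM, and the nearest 3m library was at 109.7 TPM. That library also had the highest ependymal marker sum of its age, 1655 TPM. The part of those transcripts in the Gas6 value was not tested. Tyro3 in replicate 1 of 18m was at 3.54 TPM, and the nearest 18m library was at 7.85 TPM. The same library was also the lowest of its age for Megf10, Mertk, Lrp1, Gas6, Mfge8 and Itgav.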

How the results depend on the processing

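Of the values per gene and comparison, 646 kept their direction and call status under alternatives that kept every library of the ages compared, 31 gained a call, 29 lost one and 64 turned sign. Mfge8 in P60 vs P7, at -0.15 with quantile normalization, was the only called difference among those 64. On leaving out 1 library, 429 kept direction and call status, 8 gained and 21 lost a call, and 22 uncalled differences turned sign. Of the 10 genes, the count called for P60 vs P7 was 2 with neuron and oligodendrocyte covariates (4 in the report). For 18m vs 3m it was 1 after rescaling, 0 with quantile normalization, 0 with microglia and endothelial covariates and 1 with the ependymal covariate (2 in the report). Array weights gave 6 for P14 vs P7, 1 for P60 vs P21 and 8 over the 9 ages (3, 0 and 5 in the report), and quantile normalization gave 1 for P60 vs P21. For 6m vs 3m it was 0 in the fit of those ages alone and 0 with the ependymal covariate (3 in the report). The cause of these shifts was not tested. The fit of 3m and 6m alone has fewer libraries to estimate the spread than the fit of all 34. The fit of all libraries uses 1 estimate of the spread per gene for all ages. The median SD per gene was largest at 6m (0.297), and was 0.178 at 3m and 0.130 at P7. Over all genes, fits of only 2 ages took the count from 1728 to 4914 for P14 vs P7, 271 to 617 for P60 vs P21 and 7697 to 8740 for P60 vs P7. For 18m vs 3m it went from 5476 to 4529 and for 18m vs P7 from 4316 to 4156.

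On leaving out each library in turn, the count ran from 3 to 4 for P60 vs P7, 0 to 3 for 18m vs 3m, 2 to 3 for P14 vs P7, 0 to 0 for P60 vs P21, 3 to 3 for 6m vs 3m, 2 to 4 for 18m vs P7 and 5 to 7 over the 9 ages. The replicate numbers did not pair the libraries: deviations of same-numbered libraries had a mean correlation of 0.00226 over 119 pairs, against -0.000304 over 392 other pairs. With the replicate number as a block, the counts were 4, 3, 3, 0, 3, 4 and 6 in the order P60 vs P7, 18m vs 3m, P14 vs P7, P60 vs P21, 6m vs 3m, 18m vs P7 and the 9 ages.

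Over all genes, the count called for P60 vs P7 was 7697, and 3666 with neuron and oligodendrocyte covariates and 4950 with the mature astrocyte covariate. For P14 vs P7 it was 1728, and 6008 with array weights, 4914 in the fit of those ages, 3374 with the ependymal and 1115 with the mature astrocyte covariate, and 3081 without 6m. For 6m vs 3m it was 1360, and 566 with array weights, 7 in the fit of those ages and 208 with the ependymal covariate. For 18m vs P7 it was 4316, and 2739 with quantile normalization and 6739 with array weights. For P60 vs P21 it was 271, and between 469 and 1392 under 6 alternatives. Leaving out 1 library took it to 628 to 1268 for P14 vs P7, a drop of over 1.5 times for 7 of 8 libraries (all but P14 replicate 1), and to 59 to 161 for P60 vs P21, such a drop for each of 6. For 6m vs 3m it dropped so far without 3m replicate 4 (877) or 5 (574) or 6m replicate 1 (699), and for 18m vs 3m without 18m replicate 1 (3471, against 5476). The shares of all genes called in the report move with these counts. Rescaling moved the split of higher and lower genes from 2839 and 4858 to 4122 and 3125 for P60 vs P7, from 607 and 4869 to 2564 and 2770 for 18m vs 3m, from 478 and 1250 to 1068 and 609 for P14 vs P7, from 302 and 1058 to 888 and 1020 for 6m vs 3m and from 682 and 3634 to 1586 and 1334 for 18m vs P7. For P60 vs P21 it moved from 219 and 52 to 228 and 162. Low-level genes such as Megf10 and Tyro3 have folds that log2(TPM + 1) understates.

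These differences turned sign, all but the Mfge8 value of P60 vs P7 being uncalled with and without the alternative. Rescaling gave Lrp1 0.019 and Pros1 0.13 (P60 vs P7), Axl 0.022, Tyro3 0.16, Pros1 0.071 and Itgb5 0.19 (18m vs 3m), Axl 0.060 (P14 vs P7), Megf10 0.011 and Pros1 0.021 (6m vs 3m) and Megf10 0.097, Axl 0.11, Tyro3 0.071 and Pros1 0.14 (18m vs P7). Quantile normalization gave Pros1 0.11 and Mfge8 -0.15 (P60 vs P7), Tyro3 0.32 (18m vs 3m), Axl 0.0043 (P14 vs P7), Axl -0.022 (P60 vs P21), Megf10 0.11 and Tyro3 0.088 (6m vs 3m) and Megf10 0.087, Axl 0.011, Tyro3 0.066, Pros1 0.070 and Mfge8 -0.39 (18m vs P7). Array weights gave Tyro3 0.17 (18m vs 3m), Pros1 -0.049 (P14 vs P7), Axl -0.0060 (6m vs 3m) and Tyro3 0.065 (18m vs P7). The replicate block gave Pros1 0.020 (P60 vs P7). Neuron and oligodendrocyte covariates gave Tyro3 -0.077 and Pros1 0.44 (P60 vs P7), Axl 0.00047 (P14 vs P7), Tyro3 -0.026 and Itgb5 0.0061 (P60 vs P21), Axl -0.025 (6m vs 3m) and Pros1 0.018 (18m vs P7). Microglia and endothelial covariates gave Tyro3 -0.028 and Pros1 0.26 (P60 vs P7), Tyro3 0.048 (18m vs 3m) and Pros1 -0.034 (P14 vs P7). The ependymal covariate gave Tyro3 -0.096 (P60 vs P7), Gas6 0.016 (18m vs 3m), Megf10 -0.044 and Pros1 -0.091 (P14 vs P7), Pros1 -0.12 (P60 vs P21) and Megf10 0.11, Lrp1 0.033, Tyro3 0.00057 and Pros1 0.18 (6m vs 3m). The mature astrocyte covariate gave Megf10 -0.10, Axl -0.16, Tyro3 -0.19 and Pros1 0.20 (P60 vs P7), Tyro3 0.022 (18m vs 3m), Megf10 -0.36 (P14 vs P7), Megf10 0.12, Lrp1 0.045, Mertk 0.13 and Pros1 -0.10 (P60 vs P21), Axl -0.044, Pros1 0.068 and Itgav -0.061 (6m vs 3m) and Pros1 0.030 (18m vs P7). On leaving out 1 library, the ranges that crossed 0 were Axl -0.016 to 0.10 and Pros1 -0.11 to 0.027 (P60 vs P7), Tyro3 -0.15 to 0.21 (18m vs 3m), Megf10 -0.067 to 0.10 and Pros1 -0.11 to 0.15 (P14 vs P7), Axl -0.016 to 0.089, Lrp1 -0.19 to 0.034, Megf10 -0.10 to 0.039 and Pros1 -0.059 to 0.11 (P60 vs P21), Axl -0.0040 to 0.11, Itgb5 -0.0093 to 0.16, Megf10 -0.14 to 0.11 and Pros1 -0.19 to 0.048 (6m vs 3m) and Megf10 -0.24 to 0.053 and Tyro3 -0.26 to 0.11 (18m vs P7).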
